A study of Homo sapiens with 12 samples.

Results

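The genes of cholesterol and fatty acid synthesis were examined for HSF1 occupancy at their promoters in Huh7 cells, a human hepatocellular carcinoma line. The set held 30 of the 20033 protein-coding genes annotated in GENCODE release 44 on hg38. It was split by role into 20 genes of the sterol branch, 5 genes of pathway control and 5 genes of the fatty acid branch. All 30 symbols matched an annotated gene. A gene was counted as bound when the summit of an HSF1 CUT&Tag peak lay within 1 kb of any of its annotated transcript starts. The series asked how HSF1, the transcription factor of the heat shock response, relates to histone acetylation and transcription in liver cancer cells. The values below come from wild-type cells that received no treatment and were grown in serum-containing medium. For CUT&Tag, 1 library was made with an antibody to HSF1 and 1 with an antibody to H3K27ac. CUT&Tag is a chromatin profiling assay in which a transposase is tethered to an antibody, so that sequencing adapters enter the DNA close to the antibody's target. Acetylation of lysine 27 on histone H3 (H3K27ac) marks active promoters and enhancers. The series also held transfected cells (siNC, siHSF1 and siMYCN), which were not used here.

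Cholesterol is built from acetyl-CoA. The mevalonate pathway turns acetyl-CoA into isoprenoid units, these are joined into squalene, and squalene is closed to lanosterol and trimmed to cholesterol. The fatty acid branch starts from cytosolic acetyl-CoA as well and makes palmitate, which is then elongated and desaturated. Both branches are controlled by the sterol regulatory element-binding proteins (SREBPs), membrane-held factors that SCAP escorts to the Golgi for cleavage when sterols are low and that the INSIG proteins hold back when sterols are high. At the promoters of these genes SREBPs act together with NF-Y, which binds the CCAAT box, and with Sp1, which binds GC boxes. The liver is a main site of both pathways.

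The HSF1 library held 3604911 tags, of which 2712212 (75.2%) were kept after duplicate removal, and gave 7147 peaks on chromosomes 1 to 22, X and Y. The H3K27ac library held 15737890 tags, but 896393 (5.70%) were kept, and it gave 1299 peaks. A gene without an H3K27ac peak was therefore not shown to lack the mark. Peak height is given as the pileup, which counts the extended tags that cover the summit, with an exact 95% Poisson interval. Fold enrichment divides the pileup by the local background, with 1 added to both. Neither library had replicates or a control library in the peak calling, so no p-value is given, and the intervals cover counting error only. No H3K27ac peak lay within 1 kb of the start of any of 6 hepatocyte markers (ALB, AFP, FGB, APOH, AHSG and HNF4A) or of 3 markers of other cells (PTPRC, COL1A1 and PECAM1), so the list did not show the liver origin of the cells.

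HSF1 peaks were found at 20 of the 30 genes, or 66.7% (95% Wilson interval 48.8% to 80.8%), whereas 25.4% of all protein-coding genes (5098 of 20033) had a peak by the same rule. In the sterol branch, 15 of 20 genes were bound (75%, 53.1% to 88.8%). Among the genes of pathway control, 4 of 5 were bound (80.0%, 37.6% to 96.4%). In the fatty acid branch, ACACA alone of 5 genes was bound (20%, 3.62% to 62.4%). The intervals of the sterol and fatty acid branches overlapped, which does not itself compare the shares. The fatty acid branch held 5 genes, and its lower share was not tested against that of the sterol branch. The members differed from the whole annotation in other respects as well. They had a median of 8 annotated starts per gene against 5 for all coding genes, and a median GC content of 70.4% around the start against 65.7%. Bound and unbound members had median GC contents of 69.9% and 70.9%. The part of start number and GC content in the shares was not tested. Expression was not compared either, and the 25.4% covers all coding genes, whether or not they are expressed in these cells. The heat shock genes (58.3%) and the other genes of the pathway (50%) described below also had shares above 25.4%. Among these lists, a share above that of all coding genes was thus not confined to the 30 members. The members and the lists were chosen with earlier results of these data known, so their shares do not extend to other genes.

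Each gene of the set that acts between acetyl-CoA and the isoprenoid units was bound. The set does not hold every gene of this stretch of the pathway. ACAT2, the cytosolic thiolase that makes acetoacetyl-CoA, had a peak with a pileup of 25 (16.2 to 36.9) and a fold enrichment of 9.09. HMGCS1, the synthase of the next step, had a pileup of 38 (26.9 to 52.2) and a fold enrichment of 10.7, and its summit lay 7 bp downstream of an annotated start. That peak covered chr5:43313103-43313849. MVK and PMVK, the kinases that phosphorylate mevalonate in turn, had pileups of 16 (9.15 to 26.0) and 18 (10.7 to 28.4). MVD, the decarboxylase that yields isopentenyl diphosphate, had a pileup of 22 (13.8 to 33.3) and a fold enrichment of 9.83. IDI1, the isomerase of isopentenyl diphosphate, carried the highest pileup of the set, 51 (38.0 to 67.1), at chr10:1048868-1049514. Its summit lay 78 bp upstream of the start, and 99.2% of all bound coding genes had a lower pileup. The intervals of IDI1 and HMGCS1 overlapped, whereas that of IDI1 lay above those of MVK, PMVK and MVD.

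The prenyl transferases and the squalene steps were bound as well, at more varied heights. GGPS1, which makes geranylgeranyl diphosphate for protein prenylation, had a pileup of 36 (25.2 to 49.8) and a fold enrichment of 11.5, with the summit 52 bp upstream of a start at chr1:235328158-235328912. FDPS, which makes farnesyl diphosphate, had a pileup of 12 (6.20 to 21.0) and a fold enrichment of 6.31, and the interval of GGPS1 lay above that of FDPS. FDFT1, the squalene synthase, reached a pileup of 22 (13.8 to 33.3) and a fold enrichment of 10.6, 19 bp upstream of an annotated start. SQLE, the squalene epoxidase, had a pileup of 20 (12.2 to 30.9) and a fold enrichment of 9.63. LSS, which closes the epoxide to lanosterol, had a pileup of 15 (8.40 to 24.7) and a fold enrichment of 6.67, below the median of all bound genes (7.29).

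The steps after lanosterol were occupied in part. MSMO1, the methylsterol monooxygenase, had the highest fold enrichment of the sterol branch, 12.4, with a pileup of 23 (14.6 to 34.5) at chr4:165327234-165327805, and 98.2% of bound coding genes had a lower fold enrichment. NSDHL and HSD17B7, which act with MSMO1 in removing methyl groups, both had a pileup of 13 (6.92 to 22.2), with fold enrichments of 8.24 and 7.95. STARD4, a cytosolic sterol carrier, had the lowest pileup of the bound members, 11 (5.49 to 19.7). The sterol genes without a peak within 1 kb were CYP51A1, TM7SF2, EBP, SC5D and DHCR7, all of which act on the sterol rings after lanosterol. Their nearest HSF1 summits lay 44.3 kb, 21.3 kb, 12.7 kb, 782 kb and 139 kb away, respectively. The peaks nearest to EBP and TM7SF2 lay 137 bp and 302 bp from the starts of other genes, TBC1D25 and SYVN1.

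Among the controllers, SREBF2, which encodes the SREBP that acts mainly on cholesterol genes, had the highest fold enrichment of all members, 12.6, with a pileup of 30 (20.2 to 42.8). The peak covered chr22:41832570-41833185 and its summit lay 245 bp upstream of the start, within an exon of the antisense gene SREBF2-AS1. SREBF1, which encodes the SREBP that acts mainly on fatty acid genes, had the lowest fold enrichment of the bound members, 5.14, at a pileup of 17 (9.90 to 27.2). Its summit lay 700 bp inside the gene, in an intron, and was the farthest from a start among the bound members. INSIG2 had a pileup of 12 (6.20 to 21.0) and a fold enrichment of 8.78, 126 bp upstream of its start, whereas INSIG1 had no HSF1 summit closer than 105 kb. SCAP had 2 peaks within 1 kb of annotated starts. The taller, with a pileup of 12 and a fold enrichment of 5.65, lay near an internal start 203 bp away, 32436 bp inside the gene as counted from the canonical start. The other had a pileup of 10 and a fold enrichment of 6.11, 25 bp upstream of a start near the canonical start.

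In the fatty acid branch, ACACA, the acetyl-CoA carboxylase that commits acetyl-CoA to fatty acids, had a pileup of 16 (9.15 to 26.0) and a fold enrichment of 8.42. This peak lay 28 bp upstream of an internal start, 47687 bp inside the gene from the canonical start, and ACACA was not bound when the canonical start alone was used. ACLY, which supplies cytosolic acetyl-CoA from citrate, had its nearest HSF1 summit 83.9 kb away. FASN, the fatty acid synthase, had its nearest summit 41.9 kb away, and SCD, the desaturase that makes oleate, 26.5 kb away. ELOVL6, the elongase of palmitate, was the member just outside the limit, with a summit at 1.87 kb (pileup 10, fold enrichment 5.73), as SREBF1 at 700 bp was the member just inside it. With a limit of 2 kb, ELOVL6 was counted as well and the share of this branch was 40% (11.8% to 76.9%), above the 26.3% of all coding genes. None of the 5 genes of this branch was bound at its canonical start, where the all-gene share was 22.8%. With 5 genes, a share of 0 allows up to 43.4% (upper Wilson bound).

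Over the 20 bound members, pileups ranged from 11 to 51 with a median of 17.5, against a median of 14 and a maximum of 81 over all 5098 bound coding genes. Fold enrichments ranged from 5.14 to 12.6 with a median of 8.87, against 7.29 over all bound coding genes. Fold enrichment was above that all-gene median in 15 of the 20 bound members and above the upper quartile (8.74) in 11. In the sterol branch the corresponding counts were 12 and 9 of 15, with a median fold enrichment of 9.09 and a median pileup of 20. The 4 bound controllers had a median fold enrichment of 7.22 and included both the lowest and the highest value of the set. Summits lay a median of 124 bp from the nearest start, compared with 94.5 bp over all bound coding genes.

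The CCAAT pentamer was counted on either strand within 100 bp of the summit. It was present at 11 of 20 bound members (55.0%, 34.2% to 74.2%), an interval that includes the 36.5% of all bound coding genes. All of these 11 genes belonged to the sterol branch, where 11 of 15 bound genes held it (73.3%, 48.0% to 89.1%). It was absent from the windows of the 4 bound controllers (0%, upper bound 49.0%) and of ACACA. In windows of the same width 5 kb to either side of the summits, 9 of 40 (22.5%) held the pentamer, compared with 23.8% over all bound coding genes. A longer form, in which CCAAT follows a pair of purines and precedes C or G and then a purine, was found at 7 of 20 bound members (35.0%, 18.1% to 56.7%) against 16.9% of all bound coding genes. None of the 40 flanking windows held the longer form (upper bound 8.76%), and 1.64% did over all bound coding genes. The share with the pentamer depended on the window: within 50 bp of the summit it was 30%, with 25.5% over all bound coding genes, and within 200 bp it was 80.0%, with 49.5%.

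Around the canonical start, from 150 bp before to 50 bp after it, CCAAT was present in 19 of 30 members (63.3%, 45.5% to 78.1%) against 28.5% of all coding genes. The longer form was present in 15 of 30 (50%, 33.2% to 66.8%) against 11.0%. In the sterol branch 16 of 20 starts held CCAAT (80.0%, 58.4% to 91.9%), and the share was the same with and without an HSF1 peak, at 12 of 15 bound and 4 of 5 unbound genes. Of the fatty acid genes, ACLY and FASN held it, and both were unbound. Of the controllers SREBF2 alone held it. Thus 13 of the 19 members with a box at the start were bound (68.4%, 46.0% to 84.6%), and 7 of the 11 without were bound (63.6%, 35.4% to 84.8%). Over all coding genes the corresponding shares were 32.8% and 22.5%. With the window extended to 300 bp before the start, 22 of 30 members (73.3%) held CCAAT against 39.5% of all coding genes. The 32 boxes in the shorter windows stood at a median position of -92 relative to the canonical start (negative is upstream), 28 of them between 40 bp and 140 bp upstream, and 20 were inverted relative to the gene. The window itself limits these positions. Position and orientation were not counted over all coding genes, and overlapping boxes at NSDHL were counted separately.

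Boxes in the longer form are shown here to set bound and unbound promoters side by side. Each line gives the gene, the position of the box relative to the canonical start, the hg38 region and the strand that reads CCAAT, which is in capitals. The sequences are read 5′ to 3′ from the hg38 reference. MVD, IDI1, FDPS, LSS and MSMO1 were bound, whereas EBP, DHCR7 and ACLY were not. Boxes of bound genes were taken within 100 bp of the summit, and those of unbound genes from 150 bp before to 50 bp after the start. The positions of bound and unbound genes therefore come from unlike windows.
MVD at -118, chr16:88663195-88663223, plus strand: ctcgcgcgccgaCCAATcagcggcgagtc
MVD at -157, chr16:88663234-88663262, plus strand: attacctctcagCCAATggacgggatcgg
IDI1 at -115, chr10:1049220-1049248, plus strand: agacgccgccagCCAATcacgctttcgat
FDPS at -174, chr1:155308678-155308706, minus strand: tgtgacggacgaCCAATggaagggctgaa
LSS at -148, chr21:46228908-46228936, plus strand: acgcccacgcaaCCAATcagagcgccgcg
MSMO1 at -183, chr4:165327472-165327500, minus strand: ctgcagagccagCCAATggtcggcaccgc
EBP at -28, chrX:48521766-48521794, minus strand: ttacggagcgagCCAATggtgaagcgaag
DHCR7 at -92, chr11:71448471-71448499, minus strand: caggctcctcgaCCAATcacggggcgcgg
ACLY at -92, chr17:41919029-41919057, minus strand: gaacgcgtgtggCCAATcgcggggccgtt
The longer form fixes the kind of base at a pair of positions on either side of the box, and the bases beyond them differed from line to line. The summit of the MVD peak lay 3 bp from its box at -157 and 42 bp from that at -118. The IDI1 summit lay 37 bp from its box.

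Longer stretches are shown for promoters on which the values above turn, read 5′ to 3′ on the strand of the gene. They cover bases within 100 bp of the summit that belong to no annotated exon. Capitals mark CCAAT or its complement ATTGG.
MVD, chr16:88663162-88663297, minus strand: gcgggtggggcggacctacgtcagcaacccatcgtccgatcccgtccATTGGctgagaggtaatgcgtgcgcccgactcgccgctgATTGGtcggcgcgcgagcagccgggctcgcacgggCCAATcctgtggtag
IDI1, chr10:1049120-1049297, minus strand: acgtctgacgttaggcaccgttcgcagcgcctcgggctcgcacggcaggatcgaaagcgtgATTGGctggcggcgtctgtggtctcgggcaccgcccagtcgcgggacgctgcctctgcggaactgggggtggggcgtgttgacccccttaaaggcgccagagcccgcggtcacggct
NSDHL, chrX:152830847-152830966, plus strand: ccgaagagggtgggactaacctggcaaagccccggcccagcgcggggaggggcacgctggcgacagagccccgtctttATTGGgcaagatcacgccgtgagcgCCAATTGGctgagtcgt
STARD4, chr5:111512591-111512750, minus strand: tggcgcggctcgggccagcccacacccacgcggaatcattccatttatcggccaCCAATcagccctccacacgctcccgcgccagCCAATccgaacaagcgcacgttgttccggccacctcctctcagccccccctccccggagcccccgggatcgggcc
GGPS1, chr1:235328499-235328569, plus strand: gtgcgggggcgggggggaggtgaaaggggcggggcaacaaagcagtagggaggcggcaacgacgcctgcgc
MVD held 3 boxes in this stretch and IDI1, the member with the highest pileup, held a single inverted box. NSDHL held 4 boxes within 100 bp of its summit, a pair of which overlap as CCAATTGG, and its pileup was 13. STARD4 held 2 boxes in the same orientation, 31 bp apart, at a pileup of 11. GGPS1 held no CCAAT but 2 GC boxes within 100 bp of the summit, at a pileup of 36. Over all 20 bound members, the 9 without a box at the summit had pileups from 12 to 36 with a median of 18, the 5 with a single box from 13 to 51 with a median of 23, and the 6 with 2 or more boxes from 11 to 22 with a median of 14. The ranges overlapped, and the relation was not tested.

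Other motifs of the pathway were sought in the same windows on either strand. The GC box GGGCGG was present in 27 of 30 member starts (90%, 74.4% to 96.5%) against 55.7% of all coding starts, at 18 of 20 bound and 9 of 10 unbound members. At the summits it was present in 13 of 20 bound members (65.0%), against 66.6% of all bound coding genes. The sterol regulatory element in the form TCACNCCAC occurred in the start windows of SREBF2, which was bound, and of FASN, which was not, or 2 of 30 (6.67%, 1.85% to 21.3%) against 0.839%. It was absent within 100 bp of the 20 summits (upper bound 16.1%), where 0.922% of bound coding genes held it. The E-box CACGTG occurred in the start windows of LSS, SC5D, INSIG1 and SCAP (13.3%, 5.31% to 29.7%) against 6.67%, and at none of the 20 summits (upper bound 16.1%), where 7.24% of all bound coding genes held it. The heat shock element that HSF1 is known for was sought as facing or opposed repeats of GAA, TTCNNGAA or GAANNTTC. It was found within 100 bp of the summit in PMVK alone of the 20 bound members (5.00%, 0.888% to 23.6%), against 5.02% of all bound coding genes. Of the flanking windows, 1 of 40 held it for the members (2.50%, 0.443% to 12.9%) and 9.41% for all bound coding genes.

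Many members share a promoter region with another gene. With canonical starts only, a start on the opposite strand, facing away within 1 kb, was annotated for 14 of 30 members (46.7%, 30.2% to 63.9%). The share of all coding genes was 19.8%. Of these 14 members 9 were bound (64.3%, 38.8% to 83.7%), and 11 of the other 16 were bound (68.8%, 44.4% to 85.8%). Over all coding genes the shares were 45.0% with such a partner and 20.6% without. The 9 bound members with a partner include ACACA, whose peak lay at an internal start, away from TADA2A at its canonical start. IDI1 was counted among the other 16, although a start of WDR37 lay within 1 kb of its summit. The member shares therefore do not compare peaks at shared promoters with peaks at unshared ones. For several members another gene's start was closer to the summit than the member's own. The MVK summit lay 16 bp from the start of MMAB, a gene of cobalamin metabolism, and 189 bp from a start of MVK. The SQLE summit lay 2 bp from the start of the divergent transcript SQLE-DT and farther from the starts of SQLE. The MVD summit lay 47 bp from SNAI3-AS1 and 90 bp from MVD. The ACAT2 summit lay 90 bp from SOD2-OT1 and 197 bp from ACAT2, inside an exon of SOD2. At these promoters the peak list cannot tell which gene the occupancy belongs to.

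H3K27ac peaks were found within 1 kb of the starts of 2 of the 30 members (6.67%, 1.85% to 21.3%), against 3.31% of all coding genes. At PMVK the H3K27ac peak had a pileup of 17 (9.90 to 27.2) and a fold enrichment of 9.28, with its summit 257 bp from the start, and it overlapped the HSF1 peak. At NSDHL the H3K27ac peak had a pileup of 5 (1.62 to 11.7) and a fold enrichment of 4.84, 70 bp from a start, and it also overlapped the HSF1 peak. Both genes were bound by HSF1, so 2 of 20 bound members carried the mark (10.0%, 2.79% to 30.1%), close to the 10.1% of all bound coding genes. None of the 10 unbound members carried it (upper bound 27.8%), and 0.998% of unbound coding genes did. IDI1, with the highest HSF1 pileup, had its nearest H3K27ac summit at 1.74 kb, with a pileup of 15.

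Beyond the 30 members, 38 other genes of sterol and fatty acid metabolism and its neighbours were examined, and 19 had an HSF1 peak (50%, 34.8% to 65.2%), against the same 25.4%. MMAB is among these 19 through the MVK peak, and without it 18 of 37 were bound (48.6%, 33.4% to 64.1%). These included MBTPS1, the protease that first cuts SREBPs in the Golgi (pileup 19, fold enrichment 10.1), POR and CYB5A, which carry electrons to the sterol oxidases (pileups of 21 and 22), NPC1 and NPC2, which export cholesterol from lysosomes (17 and 18), and ACSS2, which makes acetyl-CoA from acetate (34). MBTPS2, the second SREBP protease, had no peak. In fatty acid metabolism, peaks were present at HSD17B12 and TECR, reductases of the elongation cycle (fold enrichments of 10.3 and 8.88), at ACSL3 and at ELOVL1. FADS1 and FADS2, the desaturases of polyunsaturated fatty acids, shared a single peak with a pileup of 29. No peak was found at ACACB, ACSL1, ACSL4, ACSL5, SCD5, ELOVL5, HACD3, SLC25A1, LPIN1, THRSP or MLXIPL. The pentamer CCAAT lay within 100 bp of the summit in 10 of these 19 genes (52.6%, 31.7% to 72.7%), an interval that includes the 36.5% of all bound coding genes. TECR shares its peak with DNAJB1.

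Genes of the heat shock response, the textbook targets of HSF1, served as a measure of height. Of 12 such genes 7 were bound (58.3%, 32.0% to 80.7%), against 25.4% of all coding genes, with a median fold enrichment of 8.88, compared with 8.87 over the bound members. HSPD1 and HSPE1, which share a promoter, had the highest pileup, 52, next to 51 at IDI1. That is a single peak, counted for both genes in the share and the median. HSPA8 had a pileup of 37, next to 38 at HMGCS1 and 36 at GGPS1. DNAJB1 (18), HSPH1 (16), HSPA4 (12) and HSP90AA1 (11) lay in the range of the lower members. HSPA1A, HSPA1B, HSP90AB1, HSPB1 and BAG3 had no peak within 1 kb of a start. Of the 7 bound heat shock genes, 2 held CCAAT within 100 bp of the summit, HSPH1 and DNAJB1 (28.6%, 8.22% to 64.1%), near the 36.5% of all bound coding genes. In these untreated cells the tallest peaks of the sterol genes were thus as high as the tallest at the heat shock genes examined, within counting error. That compares only the tops of lists of unlike size, 15 bound sterol genes and 7 bound heat shock genes. Their median pileups were 20 and 18, and their upper quartiles 24 and 44.5, the last with the HSPD1 and HSPE1 peak counted for both genes. Without a control library, like heights do not show like HSF1 occupancy.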

How the data were processed

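Peaks of 1 HSF1 CUT&Tag and 1 H3K27ac CUT&Tag library of untreated Huh7 cells were analysed. Per the file headers, the authors ran MACS 2.1.4 on each library by itself, with hg38 alignments, no control and a p-value limit of 1e-05, after shifting tags by -100 bp and extending them to 200 bp. The pileup in the deposited lists is a signal in unscaled tags. Their deposited fold enrichment is a ratio to the local background. The deposited -log10 q-value served as a filter, although the headers state that q-values were not calculated. The CUT&Tag aligner named in the methods is Bowtie2, and its version is not given in the sources used here. The headers of the H3K27ac ChIP-seq lists name hg19 and the methods hg38, so these lists were not placed at genes. RNA-seq, ATAC-seq and the control without primary antibody were not used here.

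Starts came from GENCODE release 44, the canonical start being that of the transcript tagged as canonical, and sequence from the hg38 reference. Some promoter sequence is not reported here. Where several summits lay within 1 kb, the tallest peak was used. Named genes were all 30 members, with the other lists counted whole and examples chosen after their values were seen. The members and lists were chosen with earlier results of these data known, and the heat shock element and counts of several boxes were added later. Shares have 95% Wilson intervals. With 1 library per antibody no test was possible. The scripts were tested on simulated data. Other distances, start definitions, filters and windows were tried as alternatives. Analyses ran in Python 3.11.15 with pysam 0.24.0 for sequence, scipy 1.17.1 for intervals, pandas 2.3.3 and numpy 2.4.6 for tables, and matplotlib 3.10.9 for plots.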

Additional observations from a re-analysis of the deposited data

How the results depend on the processing

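Of 50 alternative values for 10 results, 46 stayed within the interval of the value reported and 4 moved out of it, and 42 lay above the value of all coding genes under the same setting. The fatty acid share was 0% with the outermost start only and with the canonical start only, because the ACACA peak lies at an internal start. It was 40% with a limit of 2 kb, against 26.3% of all coding genes, so its direction against all coding genes turned there, while its 8 other alternatives lay below that value as the reported 20% did. The share of bound members with CCAAT was 30% in a window of 50 bp and 80.0% in a window of 200 bp around the summit. A limit of 500 bp lost SREBF1, a limit of 2 kb gained ELOVL6, and the outermost start lost GGPS1, FDFT1, SCAP and ACACA, which left 53.3% of members bound against 21.5% of all coding genes. Filters at 5 on -log10 q or on fold enrichment, any base of the peak, and coding transcripts alone changed no member's call. The canonical start, leaving out MMAB and a start window from 300 bp upstream were chosen after the data were seen. The wider window held CCAAT in 73.3% of members against 39.5% of all coding genes, with INSIG1 and SCD among those gained. No paired analysis was possible because each antibody had 1 library and no result comes from a test. Depth limits H3K27ac most, since 5.70% of its tags were kept.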

Other observations

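Several boxes at a single summit were common in the sterol branch. At least 2 CCAAT boxes lay within 100 bp of the summit in 6 of 15 bound sterol genes (40%, 19.8% to 64.3%), namely MVD, FDPS, FDFT1, LSS, NSDHL and STARD4, against 15.1% of all bound coding genes. This count was made after the boxes had been seen. In MVD the distances between neighbouring boxes were 35 bp and 39 bp, in FDFT1 47 bp and 35 bp, and in STARD4 31 bp. The distances in NSDHL were 25 bp, 3 bp and 26 bp, of which the 3 bp belong to the overlapping pair. Those in FDPS and LSS were 133 bp and 148 bp. Over the 11 members with a box at the summit, the nearest box lay 3 bp to 73 bp from it, with a median of 44 bp.

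Between 1 kb and 25 kb from the member starts there were 9 further pairs of a gene and an HSF1 peak, at 8 genes, and 7 of them lay within 1 kb of the start of another gene. The highest lay 8.79 kb from LSS and 102 bp from a start of SPATC1L, with a pileup of 32 and a fold enrichment of 13.9. This is more than the peak at LSS itself (15 and 6.67). The peak 6.11 kb from a start of SREBF1, with a pileup of 19 and a fold enrichment of 6.17, had no start of another gene closer to it.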
